A study of Arabidopsis thaliana with 12 samples.

Results

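Transcript levels of 10 root hair genes were compared between seedlings of Arabidopsis thaliana raised with and without nanoplastics. The set was chosen by locus and holds 3 transcription factor genes, RHD6 (AT1G66470), RSL2 (AT4G33880) and RSL4 (AT1G27740), and 7 genes of the hair cell wall: EXPA7 (AT1G12560), EXPA18 (AT1G62980), COBL9 (AT5G49270), XTH26 (AT4G28850), PRP1 (AT1G54970), PRP3 (AT3G62680) and LRX1 (AT1G12040). The 10 genes were chosen with earlier results of these data known. Their counts and medians beside those of all genes are therefore descriptions and no independent test of the set. All 10 were listed in each of the 4 tables that the authors deposited, out of 24912 genes listed in at least 1 of them. The plants were Col wild type, without a mutation or transgene in any group, grown for 10 days on 1/2 MS medium. There were 6 groups of 2 libraries each: root with PS-NH2, root with PS-SO3H and root without particles, and leaf with PS-NH2, leaf with PS-SO3H and leaf without particles. PS-NH2 and PS-SO3H are nanoplastics that carry amino and sulfonic acid groups by their names, given at 50 ug/ml, and seedlings without either served as control. The labels do not say that the 2 libraries of a group came from separate plants or cultures, so a p-value may measure technical spread only.

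Each table sets 1 particle against control in 1 tissue and gives 1 fitted level per group, in reads divided by a size factor and not by gene length, but no value per library. Read depth per library is therefore unknown, and the group level stands here in place of the single samples. Every level, and every fold change and adjusted p against control, is the authors' own, taken from their deposited tables, in which 1030 genes of root and 2629 of leaf with PS-NH2, and 1152 of root and 1049 of leaf with PS-SO3H, had an adjusted p below 0.05. A gene is called changed at that limit. Each ± is a standard error (SE), worked back from the deposited fold change and its p-value.

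A root hair is a single epidermal cell that grows out at its tip. In the background biology of Arabidopsis, RHD6 starts the hair programme in cells set aside as hair cells and acts upstream of RSL2 and RSL4, related basic helix-loop-helix factors that keep the hair growing. These factors drive genes that loosen the wall at the tip and genes that build and strengthen the wall behind it. In bulk RNA from root, fewer hair cells and less RNA per hair cell cannot be told apart.

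Promoters of many hair genes are known to share the root hair element, a motif to which RSL4 has been reported to bind. The 300 bases before the gene start were read from the RefSeq sequence and annotation of build TAIR10.1 for 27443 genes and searched on both strands. The element matched in 5 of the 10 genes and in 251 of all these promoters (0.915%). As the element is known from promoters of hair genes, its matches in a set of hair genes are no independent result. These 5 matches are printed here within a stretch of 100 bases each, with the match in capitals, because all 5 code for wall proteins and the fold changes are given gene by gene further on. Each line runs 5′ to 3′ on the strand that reads as the element.
EXPA7, chr1:4276385-4276484, plus strand: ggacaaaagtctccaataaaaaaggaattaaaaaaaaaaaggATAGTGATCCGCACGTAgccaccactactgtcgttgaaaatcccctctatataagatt
EXPA18, chr1:23331463-23331562, plus strand: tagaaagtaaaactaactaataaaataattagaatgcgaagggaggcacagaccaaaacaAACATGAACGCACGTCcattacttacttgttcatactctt
PRP1, chr1:20504730-20504829, minus strand: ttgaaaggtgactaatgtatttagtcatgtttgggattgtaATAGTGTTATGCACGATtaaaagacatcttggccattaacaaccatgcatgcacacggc
PRP3, chr3:23182513-23182612, minus strand: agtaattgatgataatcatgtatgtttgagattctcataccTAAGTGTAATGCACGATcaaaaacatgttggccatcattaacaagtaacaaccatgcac
LRX1, chr1:4069857-4069956, minus strand: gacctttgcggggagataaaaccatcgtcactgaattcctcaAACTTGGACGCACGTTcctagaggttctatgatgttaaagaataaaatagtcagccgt
All 5 genes lie on the plus strand. The match read in the direction of the gene in EXPA7, from 78 to 62 bases before the start, and in EXPA18, from 40 to 25 bases before it. It read in the opposite direction in PRP1 (129 to 113 bases before the start), PRP3 (167 to 151) and LRX1 (93 to 78). The longest run of letters that PRP1 and PRP3 shared within their matches was ATGCACGAT, and that of EXPA18 and LRX1 was ACGCACGT. The 10 pairs among the 5 matches shared runs of 5 to 9 bases. No match was found in this window for RHD6, RSL2, RSL4, COBL9 and XTH26. The G-box, CACGTG, which reads the same on both strands and overlapped none of the matches, was in 0 of the 10 windows and in 7.09% of all promoters.

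In untreated seedlings all 10 genes were root genes. The log2 ratio of root over leaf control level in the authors' PS-SO3H tables ran from 4.26 for XTH26 to 7.56 for RHD6, with a median of 6.48 against 0.53 over the 22373 genes in all tables. The authors scaled each table on its own, and here equal medians or upper quartiles gave 6.11 and 6.24. Divided by gene length, PRP3 was highest in control root with a level of 1868 per kilobase. LRX1 had 528 per kilobase, EXPA7 508, EXPA18 395, PRP1 285 and COBL9 260. The factors came next, with 201 per kilobase for RSL2, 191 for RHD6 and 101 for RSL4, and XTH26 was lowest at 30.4. These levels have no spread over libraries, so the order of close neighbours such as LRX1 and EXPA7, or RSL2 and RHD6, is not settled. As a check of the tissue labels, 10 marker genes of photosynthesis had a median root over leaf log2 ratio of -6.15 and 0 of them were higher in root.

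The comparison of root with PS-NH2 against root control asks how hair genes stand in roots grown on the amino-bearing particle. EXPA18 and PRP1 fell and none of the 10 rose. The table calls 2.70% of all genes lower and 1.62% higher. The median log2 fold change of the 10 genes was -0.44, against -0.00028 for all genes, and 9 of the 10 values were negative. At an unadjusted p below 0.05 there were 5 of the 10, all lower, where 6.48% of all genes were lower and 4.37% higher at that limit. The 2 genes that fell both belong to the wall set, which makes up most of the 10 genes, and the 3 factors were not called.

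RHD6, the starter of the programme, had a level of 345 with PS-NH2 and 281 in control, the one positive value among the 10 (log2 0.30 ± 0.17, 95% interval -0.03 to 0.63). RSL2 had 271 and 279 (-0.04 ± 0.19), and RSL4, the regulator of final hair length, had 114 and 133 (-0.22 ± 0.24, interval -0.70 to 0.25). The intervals of all 3 factors include zero, and that of RSL2 runs from -0.41 to 0.33.

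EXPA7 and EXPA18 code for expansins, proteins that loosen the wall without cutting its polymers. EXPA18 fell to 322 with PS-NH2, against 494 in control (-0.62 ± 0.18, authors' adjusted p = 0.0213). EXPA7 had 449 and 573 (-0.35 ± 0.16, adjusted p = 0.315 in the authors' table). XTH26, an enzyme of the family that cuts and rejoins xyloglucan, had 11.5 with PS-NH2 and 24.2 in control, both low for this set (-1.08 ± 0.37, adjusted p = 0.0739). COBL9, a membrane-anchored protein of the COBRA family needed for hair growth, had 592 and 595 (-0.01 ± 0.16, interval -0.31 to 0.30).

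PRP1 and PRP3 code for proline-rich wall proteins of the hair, and LRX1 for a leucine-rich repeat extensin that shapes the hair wall. PRP1 gave the largest fold change of the 10. It fell to 113 with PS-NH2, against 343 in control, which is 0.331 times the control level (-1.60 ± 0.24, adjusted p = 2.67e-09 in the authors' table). PRP3 had 1244 and 1997 (-0.68 ± 0.33, adjusted p = 0.378) and LRX1 had 911 and 1322 (-0.54 ± 0.28, adjusted p = 0.497). In the plot of root levels both stand left of their controls, as do 9 of the 10 genes, but their errors are wide.

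**Figure D1:**
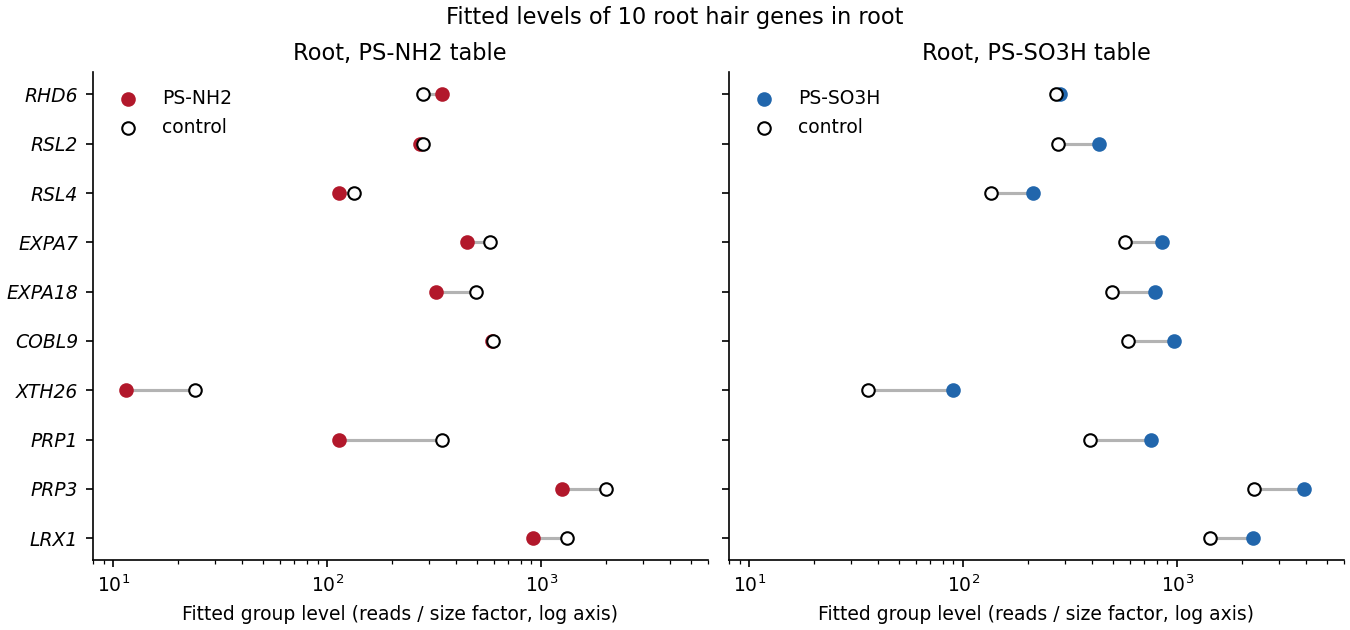
Fitted group levels of the 10 genes in root on a log axis, in reads divided by a size factor, with the particle as a filled and its control as an open point, joined by a line. With PS-NH2 (left panel) 9 of 10 filled points lie left of control, furthest for PRP1, and with PS-SO3H (right panel) all 10 lie right of control, furthest for XTH26; the levels are not divided by gene length.

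Root with PS-SO3H stood the other way. RSL2, EXPA7, EXPA18, COBL9 and XTH26 rose against root control and none of the 10 fell. The table calls 2.88% of all genes higher and 1.95% lower. The median log2 fold change of the 10 genes was 0.67, against -0.0039 for all genes. All 10 values were positive, and 9 of them had an unadjusted p below 0.05 in the authors' table, where 6.65% of all genes were higher and 4.99% lower at that limit. The root control libraries are the same in both comparisons.

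Among the factors, RSL2 rose to 431 with PS-SO3H, against 277 in control, 1.55 times as high (0.64 ± 0.18, authors' adjusted p = 0.0121). RSL4 had nearly the same fold change on a lower level, 211 and 135 (0.64 ± 0.22, adjusted p = 0.0672), and was not called. RHD6 had 282 and 272 (0.05 ± 0.18, interval -0.30 to 0.40). So the values of RSL2 and RSL4 lay close to those of the wall genes, and that of RHD6 was lowest of the 10.

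Of the loosening proteins, EXPA7 rose to 853 with PS-SO3H, against 568 in control (0.59 ± 0.14, adjusted p = 0.0018 in the authors' table). EXPA18 rose to 789, against 494 (0.67 ± 0.16, adjusted p = 0.00175). XTH26 rose most, to 89.7 with PS-SO3H and 35.9 in control, 2.49 times as high (1.32 ± 0.32, adjusted p = 0.00161). COBL9 gave the smallest adjusted p of the 10, with 966 and 588 (0.72 ± 0.15, adjusted p = 7.57e-05).

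The structural proteins were not called, although their levels differed as much. PRP1 had 753 with PS-SO3H and 391 in control (0.95 ± 0.31, adjusted p = 0.0542 in the authors' table), PRP3 had 3930 and 2281 (0.78 ± 0.31, adjusted p = 0.171), and LRX1 had 2261 and 1420 (0.67 ± 0.29, adjusted p = 0.254). Adjustment over genes with a mean level of at least 10 alone added PRP1 to the called genes, 6 of 10 in all. The share of all genes called with that filter is not given here.

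**Figure D2:**
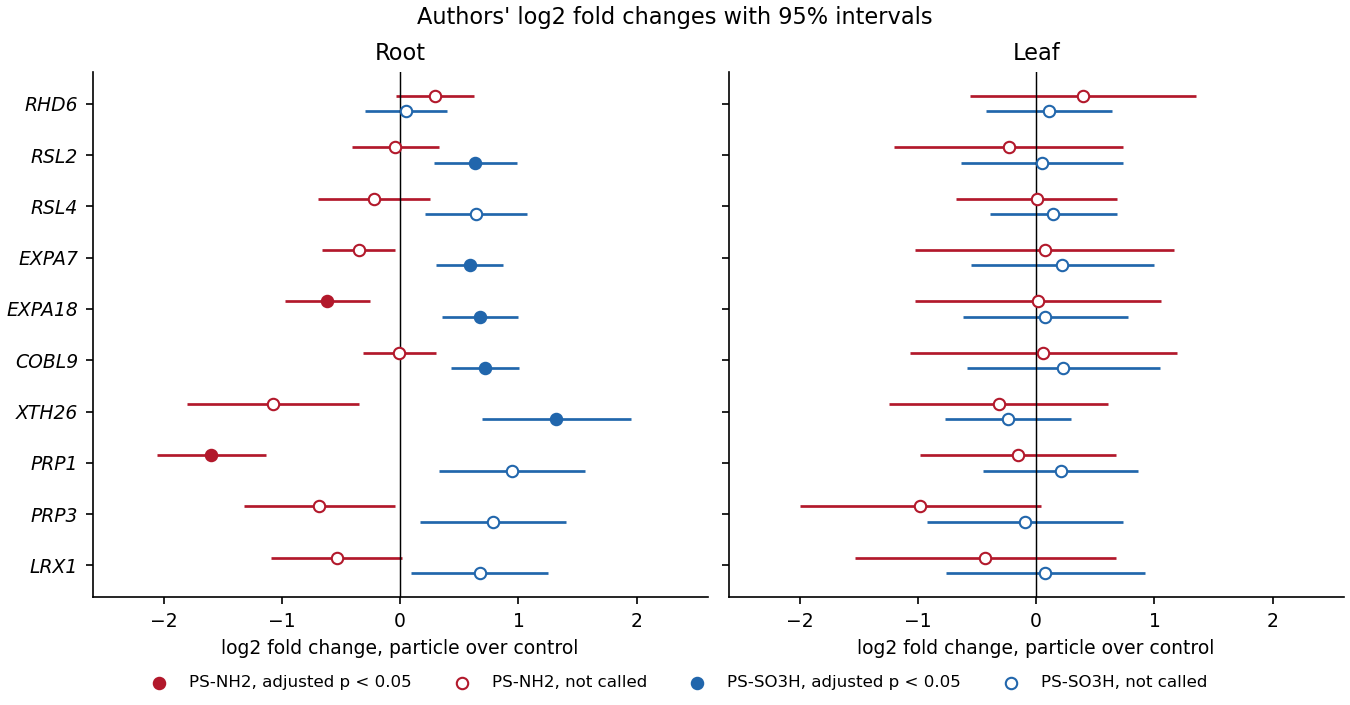
Authors' log2 fold change of particle over control with 95% intervals from the recovered SE, in root (left) and leaf (right), for PS-NH2 in red and PS-SO3H in blue; filled points have an adjusted p below 0.05. In root 2 red points are filled on the left of zero and 5 blue points on the right, and in leaf no point is filled.

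PRP1, PRP3 and LRX1 stood apart in the size of their errors. At mean levels of at least 200 the median SE of a root fold change was 0.130 in either table. The SE of PRP3 was 2.51 times that median with PS-NH2 and 2.42 times with PS-SO3H, that of LRX1 2.18 and 2.26 times, and that of PRP1 1.82 and 2.42 times, each above the 99th percentile of such genes. The other 5 of the genes at these levels had an SE of at most 1.45 times the median. The 2 root libraries of a group cannot be seen one by one, so which library differs for these genes is not known. The same 2 control libraries also got different fitted levels in the tables: PRP1 had 343 in the PS-NH2 table and 391 in the PS-SO3H table, PRP3 had 1997 and 2281, and LRX1 had 1322 and 1420. XTH26, whose SE is near the upper edge of the usual range for its level, had 24.2 and 35.9.

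**Figure D3:**
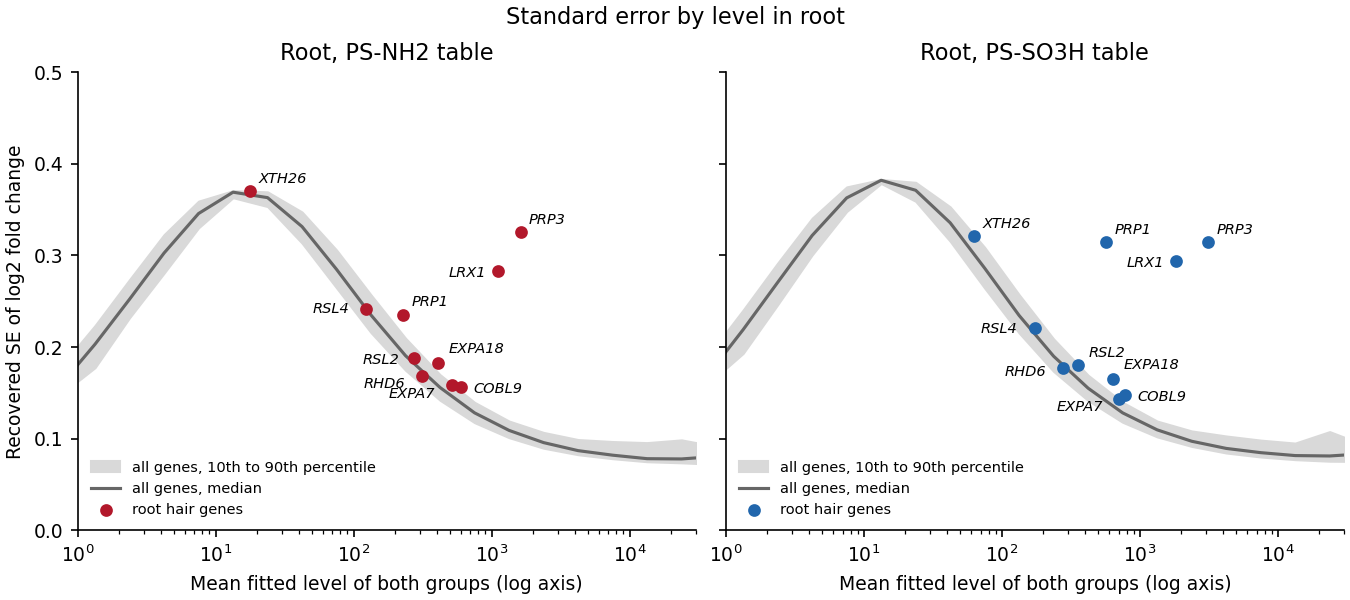
Recovered SE of the log2 fold change in root (linear axis) against the mean fitted level of both groups (log axis), with the median and the 10th to 90th percentile of all genes as line and band. PRP3 and LRX1 lie far above the band in both tables and PRP1 above it in both, further with PS-SO3H. At their lower levels RSL4 lies close to the median line and XTH26 near the upper edge of the band.

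Because the values leaned to opposite sides, the particles were compared directly, as the log2 fold change with PS-NH2 minus that with PS-SO3H, with an adjusted p over all 23498 genes in both root tables. It was lower for 6 of the 10 genes and higher for none, where 2.26% of all genes were called lower and 0.975% higher. The median difference was -1.07, against 0.0034 for all genes. PRP1 differed most, by -2.54 ± 0.39 (adjusted p = 3.03e-08), with a level of 113 under PS-NH2 and 753 under PS-SO3H. XTH26 followed with -2.40 ± 0.49 (adjusted p = 0.000109), with 11.5 and 89.7. The other 4 called genes were PRP3 at -1.47 ± 0.45 (adjusted p = 0.0396), EXPA18 at -1.29 ± 0.25 (adjusted p = 2.1e-05), EXPA7 at -0.94 ± 0.21 (adjusted p = 0.00091) and COBL9 at -0.72 ± 0.22 (adjusted p = 0.0288). All 6 code for wall or membrane-anchored proteins, as most of the 10 genes do.

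The factors and LRX1 were not called in this comparison. LRX1 differed by -1.21 ± 0.41 (adjusted p = 0.0804), RSL4 by -0.87 ± 0.33 (adjusted p = 0.158) and RSL2 by -0.68 ± 0.26 (adjusted p = 0.180). RHD6 differed by 0.24 ± 0.25, with an interval of -0.24 to 0.73, and was the only one of the 10 with a value above zero. The SE adds the squared errors of both tables as if they were independent, though they share the control libraries, and is then too large. A covariance for the shared control was then taken out, assumed as a fixed share of the product of both SEs and not estimated from libraries. With it, 9 of the 10 were called lower, RHD6 being the exception, among 2117 genes called in either direction out of 23498. The share of all genes called lower under this assumption was not worked out.

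**Figure D4:**
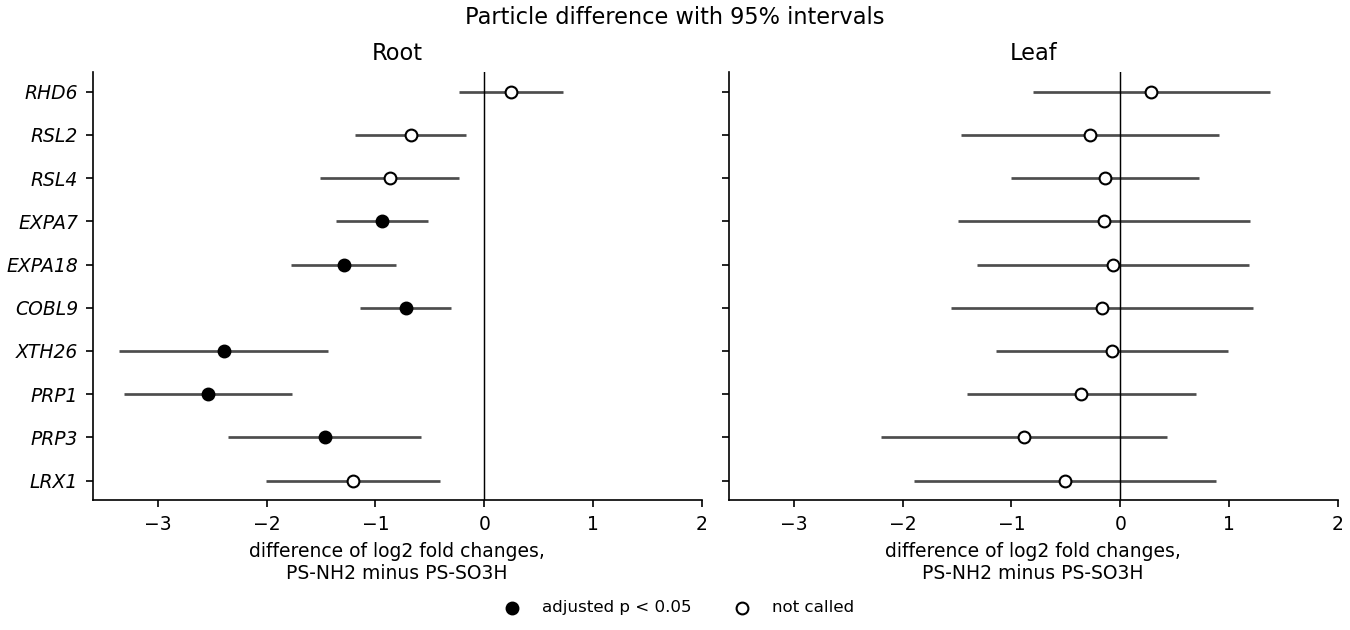
PS-NH2 minus PS-SO3H, as a difference of log2 fold changes with 95% intervals, in root (left) and leaf (right); filled points have an adjusted p below 0.05 over all genes. In root 6 points are filled, from -0.72 for COBL9 to -2.54 for PRP1, and RHD6 alone lies right of zero; in leaf none is filled and the intervals are wide.

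In leaf none of the 10 genes was called with either particle, where 11.2% of all genes were called with PS-NH2 and 4.46% with PS-SO3H. At an unadjusted p below 0.05 there were 0 of the 10 in either leaf table. Of all genes, 19.5% passed that limit in the PS-NH2 table and 12.4% in the PS-SO3H table. Their leaf levels were low: 8 of the 10 had a mean level under 10 in both tables. PRP3, the highest of them in leaf, had 14.0 with PS-NH2 and 27.7 in control (-0.98 ± 0.52, adjusted p = 0.291) and 27.8 with PS-SO3H and 29.8 in control (-0.10 ± 0.42). LRX1 had 10.2 and 13.8 with PS-NH2 and its control, and 16.3 and 15.5 with PS-SO3H and its control. The factors had levels between 0.989 and 3.29 with particles. SEs in leaf ran from 0.270, for XTH26 at levels of 1.59 with PS-SO3H and 1.87 in control, to 0.574. Small SEs at such low levels may understate the error. The leaf intervals are wide, as for EXPA18 with -1.03 to 1.05 for PS-NH2 and -0.62 to 0.77 for PS-SO3H, and the lack of a call does not show that leaf levels were alike. The particle difference in leaf called 0 of the 10 and 3.17% of all genes.

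Whether the response of root differs from that of leaf was tested as the difference of the log2 fold changes of both tissues. With PS-NH2, the fold change of PRP1 was lower in root than in leaf (-1.45 ± 0.48, adjusted p = 0.0442) and the other 9 were not called, where 1.99% of all genes were called lower and 4.59% higher. With PS-SO3H, the fold change of XTH26 was higher in root than in leaf (1.56 ± 0.42, adjusted p = 0.0126) and the other 9 were not called, where 1.63% of all genes were called higher and 0.902% lower. Both genes were near the bottom of the scale in leaf, PRP1 at 1.41 with PS-NH2 and 1.56 in control, XTH26 at 1.59 with PS-SO3H and 1.87 in control. Both calls are lost where genes with a mean level under 10 are left out, since neither gene then remains, so these differences rest on leaf values too low to carry them alone. For the other 8 genes no difference between the tissues was called with either particle, and their leaf levels leave wide intervals, such as -0.46 to 1.19 for EXPA7 with PS-SO3H.

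The 10 genes sit in a wider programme, and were set beside 84 further genes in 6 lists. These lists, too, were chosen with earlier results of these data known. The lists of other root cell types and of photosynthesis hold outside markers and are not part of that programme. Hair cells are first told from non-hair cells by the epidermal fate genes, in which a complex with WER, a MYB factor, turns on GL2 and so blocks hair fate, while CPC counters it. Of 10 such genes none was called in root with PS-NH2 (median log2 fold change 0.0039) or with PS-SO3H (0.06), by the authors' DESeq2 method. At an unadjusted p below 0.05, which 10.8% of all genes passed with PS-NH2 and 11.6% with PS-SO3H, there were 0 with PS-NH2 and 1, CPC, with PS-SO3H. WER had 185 with PS-NH2 and 178 in control, and 171 with PS-SO3H and 173 in control. GL2 had 277 and 307 with PS-NH2 and its control, and 347 and 302 with PS-SO3H and its control. CPC had 158 and 185 (-0.23 ± 0.21) with PS-NH2 and its control, and 252 and 184 (0.45 ± 0.19, adjusted p = 0.227) with PS-SO3H and its control.

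Of 11 other regulators of hair growth, none was called in root with either particle, with medians of -0.04 for the 10 listed with PS-NH2 and 0.16 for all 11 with PS-SO3H. At an unadjusted p below 0.05 there were 1 of 10 with PS-NH2 and 2 of 11 with PS-SO3H, all higher, against those same 10.8% and 11.6% of all genes. LRL3, a helix-loop-helix factor of hair growth, had 364 with PS-NH2 and 361 in control (0.01 ± 0.18), and 501 with PS-SO3H and 355 in control (0.50 ± 0.17, adjusted p = 0.0559). RSL1, the partner of RHD6 in starting hairs, had 95.5 with PS-NH2 and 65.3 in control (0.55 ± 0.28, adjusted p = 0.460), and 61.7 with PS-SO3H and 60.9 in control (0.02 ± 0.30). GTL1, which ends hair growth, had 1074 and 1111 with PS-NH2 and its control, and 1295 and 1088 with PS-SO3H and its control (0.25 ± 0.11, adjusted p = 0.255).

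The machinery of tip growth was called in part. Of 19 genes, 2 fell and none rose in root with PS-NH2 (median -0.09), where 2.70% of all genes were lower. MRH1, a receptor-like kinase of hair growth, fell to 1131, against 1601 in control (-0.50 ± 0.10, authors' adjusted p = 8.99e-05). RBOHC, the NADPH oxidase that makes reactive oxygen at the hair tip, fell to 1066, against 1379 in control (-0.37 ± 0.11, adjusted p = 0.0227). In root with PS-SO3H 4 of the 19 rose and none fell (median 0.18), where 2.88% of all genes were higher. These were RHS10, a receptor-like kinase of hairs (0.87 ± 0.16, adjusted p = 3.34e-06), AHA7, a proton pump (0.68 ± 0.13, adjusted p = 1.44e-05), COW1, a phosphatidylinositol transfer protein at the tip (0.87 ± 0.18, adjusted p = 4.95e-05), and IRE, a protein kinase of hair elongation (0.77 ± 0.21, adjusted p = 0.00675). ROP2, the small GTPase that marks the site of outgrowth, had 1400 in root with PS-NH2 and 1377 in root control, and 1366 in root with PS-SO3H and 1344 in its control. The particle difference in root was lower for 5 of the 19, against 2.26% of all genes: RHS10 (-1.19 ± 0.24), COW1 (-1.29 ± 0.28), AHA7 (-0.78 ± 0.19), ERU, a receptor-like kinase (-1.12 ± 0.30), and RBOHC (-0.55 ± 0.16). Leaf stood otherwise: with PS-NH2 4 of the 19 rose and 1 fell (median 0.13), where 11.2% of all genes were called, and with PS-SO3H none was called. The genes that rose in leaf were ROP2 (0.72 ± 0.13, authors' adjusted p = 9.51e-07), its relative ROP4 (0.65 ± 0.12), the actin gene ACT2 (0.75 ± 0.11) and FER, a receptor-like kinase (0.36 ± 0.11), and the myosin gene XIK fell (-0.57 ± 0.15).

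The 23 other wall genes of root hairs had root medians of -0.56 with PS-NH2 and 0.52 with PS-SO3H. In root with PS-NH2 21 of the 23 values were negative, 2 genes fell and none rose, against 2.70% and 1.62% of all genes. In root with PS-SO3H 21 of the 23 were positive, 2 genes rose and none fell, against 2.88% and 1.95% of all genes. In root with PS-NH2, EXT12, an extensin gene, fell to 351, against 1034 in control (-1.56 ± 0.37, authors' adjusted p = 0.0011), and RHS12, a hair-specific gene of the pectin methylesterase family, fell to 204, against 356 in control (-0.81 ± 0.20, adjusted p = 0.00303). In root with PS-SO3H, RHS12 rose to 569, against 359 in control (0.67 ± 0.17, adjusted p = 0.00243), and XUT1, which adds galacturonic acid to xyloglucan in hairs, rose to 268, against 168 in control (0.68 ± 0.20, adjusted p = 0.0172). The particle difference in root was lower for 7 of the 23, against 2.26% of all genes: RHS12 (-1.47 ± 0.26), EXT12 (-1.995 ± 0.52), XUT1 (-1.13 ± 0.31), XTH14 (-1.50 ± 0.42), LRX2 (-0.77 ± 0.22), EXT13 (-1.58 ± 0.49) and AGP3 (-1.28 ± 0.41). In leaf with PS-NH2 CSLD2, a cellulose synthase-like gene (0.48 ± 0.13, authors' adjusted p = 0.00299), and XXT5, which acts in xyloglucan synthesis (0.38 ± 0.12, adjusted p = 0.0241), rose and none fell. The leaf median with PS-NH2 was -0.26 over the 23, and 11.2% of all genes were called there in either direction. In leaf with PS-SO3H none of 22 was called, where 4.46% of all genes were called. LRX2 is the close relative of LRX1, and XTH14 belongs to the same enzyme family as XTH26. Extensins, proline-rich proteins and expansins have near-identical relatives, and how reads that map to several genes were counted is not given in the sources used here, so the split between such genes is uncertain.

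**Figure D5:**
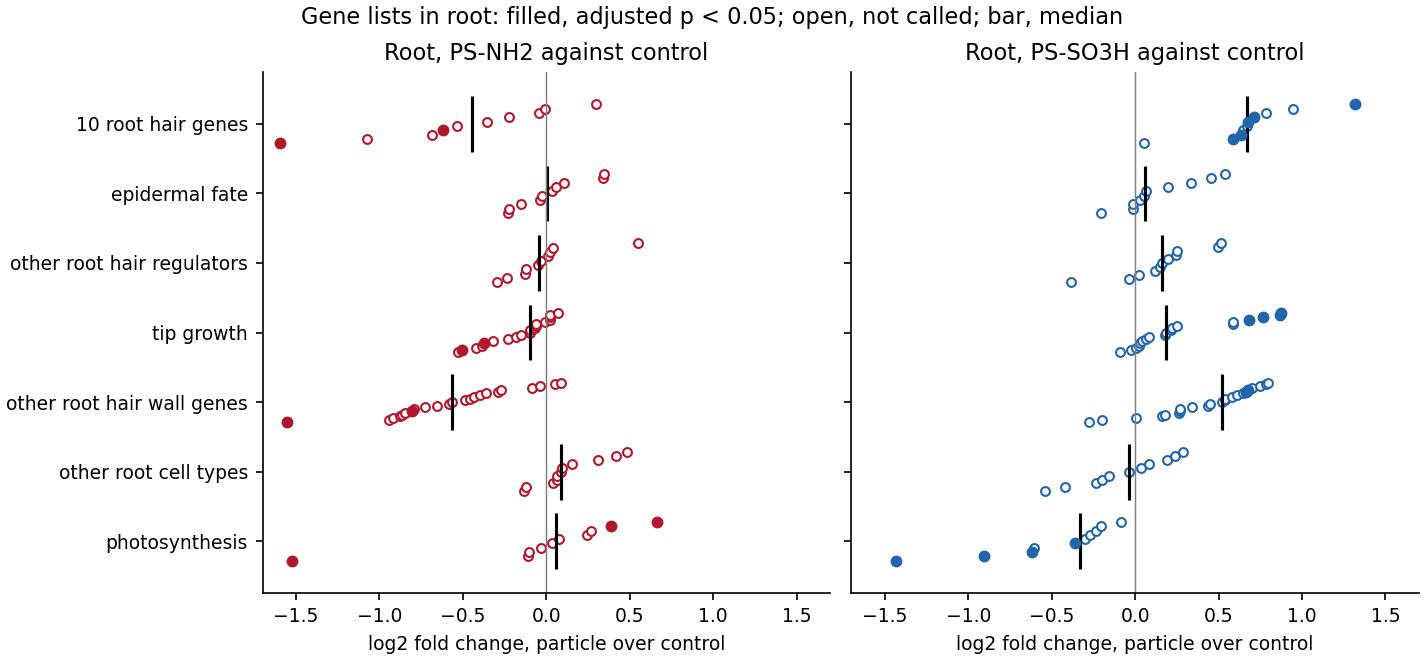
Authors' log2 fold changes of each gene in 7 gene lists in root, with PS-NH2 (left) and PS-SO3H (right); filled points have an adjusted p below 0.05, open points do not, and the black bar is the list's median. The bars of the 10 root hair genes and of the other root hair wall genes lie left of zero with PS-NH2 (-0.44 and -0.56) and right of zero with PS-SO3H (0.67 and 0.52), while those of epidermal fate and other root cell types lie within 0.09 of zero; the bar of photosynthesis lies at 0.06 with PS-NH2 and -0.33 with PS-SO3H.

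The authors' own annotation marks 190 genes with the term trichoblast maturation, of which 169 are in none of the 7 lists; this term was picked after its values had been seen. Of the 167 of these in either root table, 7 were higher and 13 lower with PS-NH2, 4.19% and 7.78% against 1.62% and 2.70% of all genes. With PS-SO3H 20 were higher and 3 lower, 12.0% and 1.80% against 2.88% and 1.95% of all genes. In the particle difference 1 was higher and 24 were lower of 165, which is 0.606% and 14.5%, against 0.975% and 2.26% of all genes.

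Markers of other tissues were read beside these results. Of 11 genes that mark other root cell types, none was called in root with either particle, with medians of 0.09 for PS-NH2 and -0.04 for PS-SO3H, and 1 gene of 11 had an unadjusted p below 0.05 in each table, against 10.8% and 11.6% of all genes. Among them CASP1 of the endodermis had 2157 with PS-NH2 and 2342 in control, and 2804 with PS-SO3H and 2294 in control (0.29 ± 0.11, adjusted p = 0.151). The quiescent centre gene WOX5 had 37.3 and 30.1 with PS-NH2 and its control, and 17.3 and 25.2 with PS-SO3H and its control. The summed root level of the 10 photosynthesis genes lay on the opposite side of control to the hair genes with each particle. With PS-NH2, LHCB1.3 and RBCS1A rose and LHCB1.1 fell, where 1.62% of all genes were called higher and 2.70% lower. The summed level of the 10 was 23498, against 18581 in control, 1.26 times as high. Their median log2 fold change was 0.06, with 6 values positive and 4 negative, so the sum rests on the most abundant of them. With PS-SO3H, LHCB1.1, LHCB1.3, LHCB2.2 and LHCB3 fell and none rose, where 1.95% of all genes were called lower and 2.88% higher. The sum was 14814, against 18064 in control, 0.82 times as high. All 10 values were negative there, with a median of -0.33, and 9 had an unadjusted p below 0.05, where 4.99% of all genes were lower at that limit. The lowest of these markers, LHCB1.1, had 25.6 with PS-NH2 and 73.7 in control, and 27.3 with PS-SO3H and 73.9 in control. The part of green tissue or of a shift in cell types in the hair gene values was not tested.

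Genes whose pattern was most like that of the set were ranked over 5 values, the 4 log2 fold changes and the log2 ratio of root over leaf control level, among 17722 genes with a root control level of at least 50. Nearest to the median of the 10 genes were AT2G37820, XUT1, AT3G09925, AT1G34510 and AT3G11370, at a root mean square distance of 0.085 to 0.104 log2 units. XUT1 had -0.46 with PS-NH2 and 0.68 with PS-SO3H in root, beside -0.44 and 0.67 for the median of the 10 genes. Nearest to RSL4 were AT3G07900, AT3G09925, MEE15, CID5 and AT2G47530, at 0.062 to 0.121, of which AT3G07900 is marked with trichoblast maturation. AT3G09925 stood in both rankings, with -0.33 and 0.66 in root, 0.11 and 0.10 in leaf with PS-NH2 and PS-SO3H, and a root over leaf log2 ratio of 6.40.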

How the data were processed

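Per the labels' protocols, cDNA was made from total RNA of leaf and root with random primers. Genome build TAIR10 comes from the submitters' processing notes. Aligner and counting program are not clear from the sources used here, since the series text describes a small RNA library. Each of 4 tables was made by the authors with DESeq2, per the labels of those tables. The deposited group level is a signal in reads divided by size factors, the deposited log2 fold change (treated over control) equals the log2 ratio of both levels, and the p-value and adjusted p are the authors'.

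The SE is the fold change over the normal quantile that matches the authors' p-value. In root with PS-SO3H the median SE was 0.382 at mean levels of 10 to 17.8, but 0.096 at 0.178 to 0.316. Whether the authors' fit drew low-level fold changes toward zero was not tested, so these fold changes, their SEs and their intervals may all be too small. Differences between particles or tissues add squared SEs, with a normal p (2-sided), adjusted over all genes by the Benjamini-Hochberg method. The calculation was checked on simulated fold changes with normal errors, which does not test whether the errors of the real ones are normal. Depth per library is unknown, so precision rests on these SEs.

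The 10 genes and 6 lists (94 genes, all matched to RefSeq TAIR10.1) were chosen with earlier results of these data known. Named by rule are the 10, the called list members in root and the nearest genes by pattern; other examples were chosen after their values were seen. Promoter coordinates are those of TAIR10.1, as the tables hold none. Call limits, low-level filters, re-centring, an assumed covariance of shared controls and tissue scaling were varied. Python 3.11.15, pandas 2.3.3, numpy 2.4.6, scipy 1.17.1 and matplotlib 3.10.9 were used.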

Additional observations from a re-analysis of the deposited data

Results flagged for a closer look

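In root, 6 of the 10 genes had log2 fold changes that differed between the particles by the test of the difference itself, PS-NH2 minus PS-SO3H: PRP1 by -2.54, XTH26 by -2.40, PRP3 by -1.47, EXPA18 by -1.29, EXPA7 by -0.94 and COBL9 by -0.72. For XTH26 this rests on the lowest root levels of the set and on control levels fitted at 24.2 in the PS-NH2 table and 35.9 in the PS-SO3H table. The log2 fold change against control also passed that test between tissues for 2 genes, root minus leaf: PRP1 with PS-NH2 at -1.45 and XTH26 with PS-SO3H at 1.56. Leaf levels of both were under 2 with these particles and in their controls, and both calls were lost among genes with a mean level of at least 10, so little can be read from them beyond the root fold changes. Groups of 2 libraries with no value per library gave no check for a single library far from the other.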

How the results depend on the processing

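Of the 10 genes in root, PS-NH2 gave 2 calls, and 1 (PRP1) where a log2 change of at least 1 in size was also required, at an adjusted p below 0.05 or of at most 0.001. With PS-SO3H 5 were called, 1 (XTH26) with the fold limit added and 0 with the adjusted p of at most 0.001 as well. For the particle difference in root, 6 were called, and 3 (PRP1, XTH26 and EXPA18) at an adjusted p of at most 0.001 and a difference of at least 1. With an assumed covariance of the shared controls taken out, 9 were called. The single call in each tissue difference became 0 at the stricter limit and 0 among genes with a mean level of at least 10. The share of all genes called under each of these alternatives is not given here. Whether the 10 genes lost or gained calls more readily than other genes therefore cannot be read from these counts. The median root over leaf log2 ratio of 6.48 was 6.91 with control levels from the PS-NH2 tables. Of the gene-wise results under alternatives, 102 stayed on the same side of the limit, 14 were lost, 4 were gained and 0 turned round. Many of the 102 could hardly move, since stricter limits can only remove calls and re-centring shifted values little. The tally is therefore no measure of how firm the calls are. Leaf counts stayed at 0 under each alternative run. No paired analysis was possible because the deposited tables hold 1 level per group, and for the same reason no library could be left out. Depth per library is unknown, and 8 of 10 genes had leaf levels under 10.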
